A study of Homo sapiens with 10 samples.

Results

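The let-7 family main arms are the 5p strands of let-7a, let-7b, let-7c, let-7d, let-7e, let-7f, let-7g and let-7i together with miR-98-5p. All 9 were found by name among 2576 mature miRNAs, where they filled 12 of 2794 rows because let-7a-5p has 3 genomic copies and let-7f-5p has 2; rows of the same name were summed. They were measured by small RNA sequencing in ES-2, an established human ovarian cancer cell line. Cells had received an siRNA pool against IGF2BP1 (siIGF2BP1, 2 libraries), against IGF2BP2 (siIGF2BP2, 3 libraries), against IGF2BP3 (siIGF2BP3, 3 libraries) or a control siRNA (siC, 2 libraries). Per the labels all 10 libraries come from parental ES-2 cells in the same medium, and the labels give no time after transfection. The siIGF2BP1 and siC samples carry the source name ES-2, whereas the siIGF2BP2 and siIGF2BP3 samples carry a more general source name. These 2 blocks of samples and the groups in them cannot be told apart, except in siIGF2BP1 against siC and in siIGF2BP2 against siIGF2BP3, which each lie within a block.

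As background, let-7 was found in Caenorhabditis elegans as a regulator of developmental timing and is among the most conserved animal miRNAs. A mature let-7 strand, loaded into an Argonaute protein, pairs through its seed with target mRNAs and lowers their stability and translation; known human targets include HMGA2, LIN28B, RAS family and IGF2BP mRNAs. LIN28 proteins bind let-7 precursors and block their maturation, and many tumours have low let-7. The 3 IGF2BP proteins are oncofetal RNA-binding proteins, and IGF2BP1 is known for protecting bound mRNAs from miRNA-directed decay. The series title concerns this antagonism, so the levels of the let-7 strands under each knockdown bear on whether the miRNA side of it differed between the groups.

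The mature strands are printed because the whole family shares 1 seed and its members are told apart by few bases. The sequences are from RefSeq (GRCh38.p14), 5′ to 3′, and capitals mark the seed, bases 2 to 8; the prefix hsa- of the human names is left out elsewhere.
hsa-let-7a-5p: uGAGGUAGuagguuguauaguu
hsa-let-7b-5p: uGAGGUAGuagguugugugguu
hsa-let-7c-5p: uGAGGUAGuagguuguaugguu
hsa-let-7d-5p: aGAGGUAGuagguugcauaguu
hsa-let-7e-5p: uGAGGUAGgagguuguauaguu
hsa-let-7f-5p: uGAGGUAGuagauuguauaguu
hsa-let-7g-5p: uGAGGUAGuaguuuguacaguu
hsa-let-7i-5p: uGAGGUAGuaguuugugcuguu
hsa-miR-98-5p: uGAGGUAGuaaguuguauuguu

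All 9 strands have 22 bases and matched a RefSeq entry. With positions counted from 1 at the 5′ end and let-7a-5p as the reference, let-7c-5p differs by A19G, let-7e-5p by U9G and let-7f-5p by G12A. let-7b-5p differs by A17G and A19G, let-7d-5p by U1A and U16C, let-7g-5p by G12U and U18C, and miR-98-5p by G11A and A19U. let-7i-5p differs most, by G12U, A17G, U18C and A19U. The seed GAGGUAG is also found in miR-4458, which had 1 read in 1 library, and in miR-4500, which had 0 reads in the 10 libraries, where a count of 0 allows up to 3 reads. Nearly all reads of listed miRNAs with this seed were thus from the 9 members.

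The 9 strands come from 12 hairpins, many of them clustered (GRCh38.p14, with host genes from GENCODE). On chromosome 9 the hairpins of let-7a-1 and let-7f-1 lie 311 bases apart, and that of let-7d follows after 2401 bases, all in an intron of the long non-coding RNA AL158152.2; the mature let-7d-5p is at chr9:94178841-94178862 on the plus strand. On chromosome 19 let-7e, with its mature strand at chr19:51692793-51692814 on the plus strand, lies 105 bases from miR-99b and 390 bases from miR-125a, in an intron of SPACA6 and antisense to an exon of SPACA6P-AS. On chromosome 21 let-7c lies 659 bases from miR-99a in an intron of MIR99AHG. let-7a-2 lies 5636 bases from miR-100 in MIR100HG on chromosome 11, and let-7a-3 and let-7b lie 864 bases apart within an exon of MIRLET7BHG on chromosome 22. miR-98, with its mature strand at chrX:53556299-53556320 on the minus strand, and let-7f-2 lie 851 bases apart in an intron of HUWE1. let-7g is in an intron of WDR82 on chromosome 3, and let-7i on chromosome 12 overlaps an exon of LINC01465 on the opposite strand.

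The libraries held 462724 to 1269743 reads. The deposited values are reads scaled per library by the authors and are called normalised reads below, and 1 read was worth 0.803 to 2.0 of them. Libraries of the same group differed by more than sampling noise, and the labels do not say whether they were separate cultures; the p-values therefore speak of the spread between these libraries alone. Epithelial miRNAs of the miR-200 family (5 listed) took 0 to 0.00121% of reads. A list of 29 miRNAs from the imprinted DLK1-DIO3 cluster took 0.161 to 0.427% of reads in the siIGF2BP1 and siC libraries and 0.000859 to 0.00182% in the siIGF2BP2 and siIGF2BP3 libraries; its part in the results that cross these blocks was not tested. The mRNAs of the 3 siRNA targets were not measured here. In bulk libraries such as these, fewer cells of a type and less RNA per cell cannot be told apart.

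In every library the let-7 family was a large part of all miRNA reads. Its share was 30.9% and 27.9% in the siIGF2BP1 libraries, 28.1%, 28.4% and 27.1% in the siIGF2BP2 libraries, 32.6%, 30.6% and 28.1% in the siIGF2BP3 libraries, and 28.7% and 30.5% in the siC libraries. The siIGF2BP1 and siIGF2BP3 libraries lay on both sides of the siC values, and all 3 siIGF2BP2 libraries lay below them. The counting error of each share is small, with an exact Clopper-Pearson 95% interval of 32.5 to 32.7% in the shallowest library, so the spread is one between libraries. Most of the family was let-7a-5p, at 56.5 to 62.4% of its reads, followed by let-7i-5p at 14.2 to 17.2%, let-7f-5p at 11.3 to 13.7% and let-7g-5p at 5.46 to 6.81%. These 4 strands held on average 93.9% of the family. let-7e-5p and miR-98-5p averaged 2.13% and 2.04%, and let-7d-5p, let-7b-5p and let-7c-5p 0.794%, 0.591% and 0.548%. let-7a-5p averaged 167317 normalised reads over the 10 libraries, 110 times the 1528 of let-7c-5p. These are ratios of reads, and whether the library preparation captured each strand equally well was not tested.

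**Figure D1:**
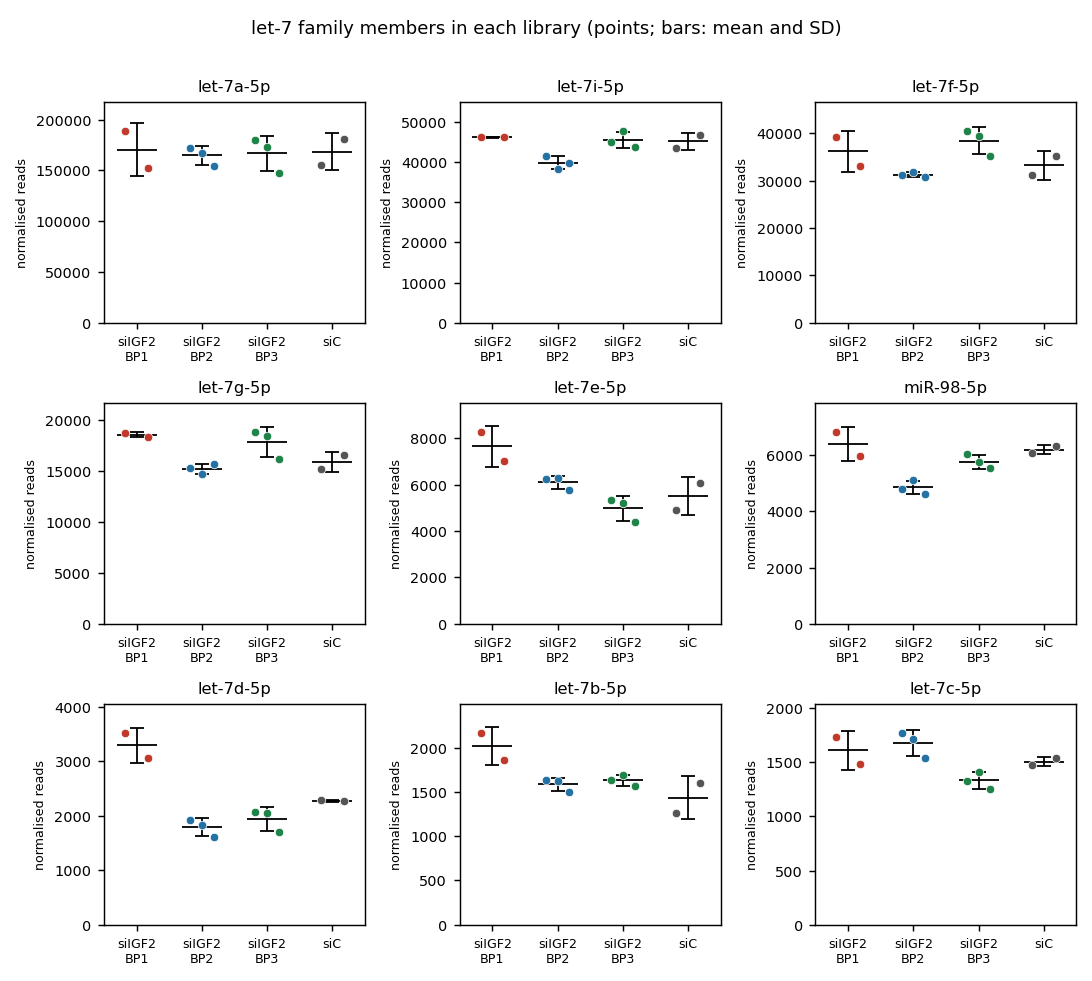
Normalised reads (y axis, from 0) of the 9 let-7 family members in the siIGF2BP1, siIGF2BP2, siIGF2BP3 and siC libraries (x axis); points are libraries, bars the group mean and SD. let-7a-5p groups overlap between 147602 and 188859, and both siIGF2BP1 libraries of let-7d-5p (3524 and 3069) lie above the highest of the others (2281).

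Some reads could belong to a close relative, since the sources used here do not give the settings for mismatches and multiple placements. let-7c-5p and let-7e-5p are each 1 base away from let-7a-5p. Their reads equalled 0.739 to 1.03% and 2.97 to 4.63% of those of let-7a-5p, and the part of misread let-7a-5p in them was not tested. The 3 rows of let-7a-5p held 31.7 to 32.4%, 33.8 to 34.3% and 33.6 to 34.2% of its reads, with the first row lowest in 10 of 10 libraries. For let-7f-5p the rows held 48.8 to 49.7% and 50.3 to 51.2%. The near-equal split in every library means that these rows give no separate levels for the hairpins of let-7a and let-7f.

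After IGF2BP1 depletion let-7d-5p, let-7b-5p and let-7e-5p stood 0.48 to 0.53 above siC on the log2 scale by limma on the deposited values, but no member passed the test. let-7d-5p had 3524 and 3069 normalised reads in the siIGF2BP1 libraries, against 2281 and 2262 in the siC libraries. The groups did not overlap. Its log2 fold change was 0.53 (SE 0.14, limma, adjusted p = 0.069). let-7b-5p had 2169 and 1866 in siIGF2BP1 and 1262 and 1605 in siC, a log2 fold change of 0.50 (SE 0.14, limma adjusted p = 0.0743). let-7e-5p had 8287 and 7032 in siIGF2BP1 and 4920 and 6085 in siC, a log2 fold change of 0.48 (SE 0.14, limma adjusted p = 0.0879). Both were higher in each siIGF2BP1 library than in either siC library. The share of all miRNAs whose groups do not overlap is not given, here or in the comparisons below. A lack of overlap between so few libraries thus has no background beside it. Of the strands that make up most of the family, let-7a-5p averaged 170412 ± 26089 in siIGF2BP1 and 168477 ± 18093 in siC (SD, n = 2 each), and let-7i-5p 46184 ± 109 in siIGF2BP1 and 45116 ± 2218 in siC. Of the 9 members limma called 0, with 4 at an unadjusted p under 0.05, and edgeR and DESeq2 on the recovered reads also called 0. By edgeR 1 member had an unadjusted p under 0.05, let-7i-5p, at a negative log2 fold change (-0.22), and by DESeq2 2 had, let-7i-5p (-0.20) and let-7d-5p (0.30). The size of the differences depended on tool and scaling: for let-7d-5p, let-7b-5p and let-7e-5p edgeR gave 0.28, 0.24 and 0.22, DESeq2 0.30, 0.26 and 0.25, and limma 0.32, 0.28 and 0.26 with upper-quartile scaling. Among all miRNAs tested, limma called 2.47%, edgeR 12.5% and DESeq2 11.4%. Such shares are given throughout for limma on the deposited values with the main filter, edgeR and DESeq2. Counts of members under other scalings or filters, and counts at an unadjusted p under 0.05, have no such share beside them. The members' median log2 fold change was 0.12, beside 0.10 over all 889 miRNAs. Many of the 889 have few reads, where log2(value + 1) understates changes. Here and below, the median over all miRNAs is thus not a like background for the abundant members. When only the 364 miRNAs with at least 10 normalised reads in 2 libraries were tested, limma called 3 members. They were let-7b-5p, let-7d-5p and let-7e-5p, with a lowest limma adjusted p of 0.0336. With the main filter, leaving out 1 library left 1 in its group. The log2 fold change of let-7b-5p was then 0.33 without siC C2 and 0.67 without siC C3. It was 0.39 without siIGF2BP1 replicate 1 and 0.61 without siIGF2BP1 replicate 2.

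In siIGF2BP2 against siC, a comparison that crosses the blocks, limma called 1 of 9 members lower, miR-98-5p. It had 4809, 5109 and 4634 normalised reads in the siIGF2BP2 libraries, against 6086 and 6313 in the siC libraries. The groups did not overlap, and the log2 fold change was -0.35 (SE 0.10, limma adjusted p = 0.0382). limma called 9% of all miRNAs in this comparison, edgeR 15.5% and DESeq2 11.6%, so 1 of 9 members is near the background. edgeR called miR-98-5p and let-7i-5p lower (-0.42, adjusted p = 0.0132, and -0.24, adjusted p = 0.0341), and DESeq2 these and let-7d-5p (-0.41, adjusted p = 0.0327). let-7i-5p had 41382, 38229 and 39862 in siIGF2BP2 and 43548 and 46685 in siC. let-7d-5p had 1927, 1837 and 1602 in siIGF2BP2 and 2281 and 2262 in siC. In both, every siIGF2BP2 library lay below the siC libraries, and limma gave adjusted p = 0.256 and 0.13. let-7b-5p, let-7c-5p and let-7e-5p were above siC on average, each at a log2 fold change of 0.15 or 0.16, and did not pass. The call of miR-98-5p was lost on leaving out any 1 of the 5 libraries (adjusted p = 0.0599 to 0.161), and the change became 0.13 when libraries were scaled by their upper quartile. With that scaling limma called 3 other members, let-7b-5p, let-7c-5p and let-7e-5p, all higher in siIGF2BP2 (each 0.63 or 0.64, adjusted p = 0.0135 to 0.0164). The share of all miRNAs called with that scaling is not given.

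After IGF2BP3 depletion no member passed the test against siC on the deposited scale, a comparison that also crosses the blocks. Log2 fold changes ran from -0.23 for let-7d-5p to 0.21 for let-7f-5p. let-7f-5p had 40436, 39475 and 35141 normalised reads in siIGF2BP3 and 31065 and 35264 in siC (limma adjusted p = 0.258), so the groups overlapped. let-7d-5p had 2075, 2056 and 1694 in siIGF2BP3 and 2281 and 2262 in siC (limma adjusted p = 0.344), with no overlap. limma called 0 of 9 members, with 0 at an unadjusted p under 0.05, and edgeR and DESeq2 called 0, each with 3 at an unadjusted p under 0.05. Over all miRNAs tested, the called shares were 10.6% by limma, 19.1% by edgeR and 14% by DESeq2. The members' median log2 fold change was -0.01, beside 0.00 over all miRNAs. With upper-quartile scaling limma called 6 of 9 members higher in siIGF2BP3, among them let-7f-5p (0.81), let-7b-5p (0.79) and let-7g-5p (0.76). let-7d-5p became 0.36 without a call. The called shares above are not for that scaling, so this count has no background beside it.

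The 3 comparisons above share the siC libraries. In the authors' deposited table, which lists the 12 rows separately against siC, the lowest false discovery rate of a let-7 row was 0.188 for siIGF2BP1, 0.364 for siIGF2BP2 and 1 for siIGF2BP3. Of the 12 rows, 3, 1 and 0 had a deposited p-value under 0.05.

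**Figure D2:**
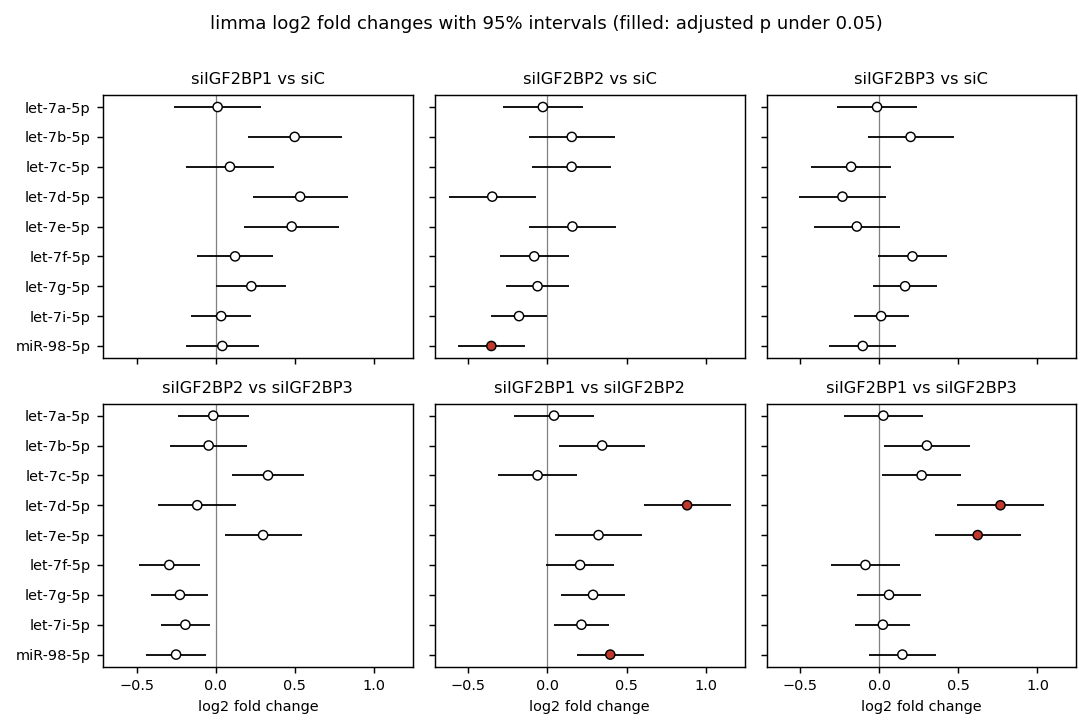
limma log2 fold changes (x axis; horizontal bars, 95% intervals) of the 9 members (rows) in 6 comparisons (panels); filled points have an adjusted p under 0.05. Filled points are miR-98-5p in siIGF2BP2 against siC (-0.35), let-7d-5p (0.88) and miR-98-5p (0.40) in siIGF2BP1 against siIGF2BP2, and let-7d-5p (0.77) and let-7e-5p (0.62) in siIGF2BP1 against siIGF2BP3.

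Within the block of siIGF2BP2 and siIGF2BP3 libraries, let-7c-5p and let-7e-5p had a positive log2 fold change of siIGF2BP2 over siIGF2BP3 and the other 7 members a negative one, none larger than 0.33 in size. let-7c-5p had 1774, 1720 and 1544 normalised reads in siIGF2BP2, against 1331, 1414 and 1258 in siIGF2BP3, without overlap (log2 fold change 0.33, SE 0.10, limma adjusted p = 0.132). let-7e-5p had 6269, 6280 and 5776 in siIGF2BP2 and 5352, 5200 and 4382 in siIGF2BP3, also without overlap (0.30, SE 0.11, limma adjusted p = 0.218). In the other direction, let-7f-5p had 31164, 31833 and 30709 in siIGF2BP2 and 40436, 39475 and 35141 in siIGF2BP3 (-0.29, SE 0.09, limma adjusted p = 0.122). miR-98-5p had 4809, 5109 and 4634 in siIGF2BP2 and 6027, 5755 and 5529 in siIGF2BP3 (-0.25, SE 0.09, limma adjusted p = 0.174). For both, each siIGF2BP2 library was below each siIGF2BP3 library. limma called 0 of 9 members, with 6 at an unadjusted p under 0.05. edgeR called let-7c-5p higher (0.38, adjusted p = 0.0413). DESeq2 called let-7c-5p and let-7e-5p higher (0.37, adjusted p = 0.00762, and 0.33, adjusted p = 0.0483). By edgeR and by DESeq2, too, 6 members had an unadjusted p under 0.05. The share of all miRNAs at that unadjusted level is not given. Of all miRNAs tested, limma called 3.15%, edgeR 11.9% and DESeq2 14.4%. The median over the members was -0.12, beside 0.00 over all miRNAs.

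The largest differences of a let-7 strand were between siIGF2BP1 and the other knockdowns, comparisons that cross the blocks. let-7d-5p, with 3524 and 3069 normalised reads in siIGF2BP1, had 1927, 1837 and 1602 in siIGF2BP2. Its log2 fold change was 0.88 (SE 0.13, limma adjusted p = 0.00045). Against siIGF2BP3, with 2075, 2056 and 1694, it was 0.77 (SE 0.13, limma adjusted p = 0.000842). edgeR gave 0.69 (adjusted p = 0.00236) and 0.62 (adjusted p = 0.00327), and both calls stood on leaving out any 1 of the libraries compared. Scaling by the upper quartile, which rests on miRNAs with few reads, ended both, at 0.19 and -0.046.

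Against siIGF2BP2, limma called 2 of 9 members higher in siIGF2BP1, let-7d-5p and miR-98-5p, while edgeR and DESeq2 called let-7d-5p alone. The background was 13.5% of all miRNAs for limma, 25.4% for edgeR and 11.8% for DESeq2. miR-98-5p had 6830 and 5963 normalised reads in siIGF2BP1, against 4809, 5109 and 4634 in siIGF2BP2 (log2 fold change 0.40, SE 0.10, limma adjusted p = 0.0155). It lost its call without siIGF2BP1 replicate 1 (adjusted p = 0.144), without siIGF2BP2 replicate 3 (adjusted p = 0.0623), and in 8 of 16 other settings, among them edgeR (0.20, adjusted p = 0.149), DESeq2, TMM, median-of-ratios and family-total scaling, and upper-quartile scaling, which turned it to -0.30. With upper-quartile scaling limma called 4 members, all lower in siIGF2BP1, a count without a background share for that scaling. let-7g-5p, with 18694 and 18329 in siIGF2BP1 and 15233, 14644 and 15618 in siIGF2BP2, did not pass (0.29, SE 0.09, limma adjusted p = 0.0605). The members' median log2 fold change was 0.29, beside 0.22 over all miRNAs.

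Against siIGF2BP3, 2 of 9 members were called higher in siIGF2BP1 by limma, let-7d-5p and let-7e-5p, and edgeR and DESeq2 called both as well. limma called 14.8% of all miRNAs here, edgeR 37.0% and DESeq2 23.8%. let-7e-5p had 8287 and 7032 normalised reads in siIGF2BP1, against 5352, 5200 and 4382 in siIGF2BP3 (log2 fold change 0.62, SE 0.13, limma adjusted p = 0.00354). Without siIGF2BP1 replicate 1 its adjusted p was 0.0817, and scaling by the upper quartile gave -0.19. With that scaling limma called 7 members, all but let-7d-5p and let-7e-5p, lower in siIGF2BP1, again without a background share for it. let-7b-5p, with 2169 and 1866 in siIGF2BP1 and 1636, 1695 and 1569 in siIGF2BP3, did not overlap either and did not pass (0.30, SE 0.13, limma adjusted p = 0.145). let-7a-5p differed by 0.03 (95% interval -0.23 to 0.28) and let-7i-5p by 0.02 (95% interval -0.15 to 0.20). The members' median log2 fold change was 0.15, beside 0.16 over all miRNAs.

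The order of the 4 groups differed from member to member. Mean values were highest in siIGF2BP1 for 7 of the 9 members, in siIGF2BP2 for let-7c-5p and in siIGF2BP3 for let-7f-5p. The median over all miRNAs was also positive for siIGF2BP1 against each other group on the deposited scale. The share of all miRNAs with their highest mean in siIGF2BP1 is not given. For let-7d-5p the order from high to low was siIGF2BP1, siC, siIGF2BP3 and siIGF2BP2, and no neighbours in it differed by the limma test. For let-7e-5p it was siIGF2BP1, siIGF2BP2, siC and siIGF2BP3, again with no neighbours past the test. For miR-98-5p it was siIGF2BP1, siC, siIGF2BP3 and siIGF2BP2, and only groups further apart than neighbours were called. The group means of let-7a-5p were within a factor of 1.03 of each other, and those of let-7d-5p within 1.84. By mean share of the family's reads, siIGF2BP1 was highest for let-7b-5p, let-7d-5p, let-7e-5p and let-7g-5p. siIGF2BP2 was highest for let-7a-5p and let-7c-5p, siIGF2BP3 for let-7f-5p, and siC for let-7i-5p and miR-98-5p.

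Shares within the family do not depend on how whole libraries were scaled, and among the minor strands those of let-7e-5p separated all 4 groups. let-7d-5p took 1.12% and 1.14% of the family's reads in siIGF2BP1, 0.626 to 0.696% in siIGF2BP2, 0.659 to 0.697% in siIGF2BP3, and 0.76% and 0.872% in siC. Both siIGF2BP1 libraries were above all 8 others, while siIGF2BP2 and siIGF2BP3 overlapped. let-7e-5p took 2.63% and 2.61% in siIGF2BP1, 2.26 to 2.34% in siIGF2BP2, 1.71 to 1.78% in siIGF2BP3, and 1.88% and 2.04% in siC. For let-7b-5p the shares were 0.688% and 0.693% in siIGF2BP1, 0.584 to 0.606% in siIGF2BP2, 0.544 to 0.611% in siIGF2BP3, and 0.483% and 0.539% in siC. let-7c-5p took 0.551% in each siIGF2BP1 library, 0.603 to 0.641% in siIGF2BP2, 0.442 to 0.49% in siIGF2BP3, and 0.566% and 0.517% in siC. Its highest shares were those of the siIGF2BP2 libraries and its lowest those of the siIGF2BP3 libraries. let-7f-5p took 13.4 to 13.7% in siIGF2BP3 and at most 12.4% in the other groups. miR-98-5p took 1.74 to 1.9% in siIGF2BP2 and at least 1.95% elsewhere.

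**Figure D3:**
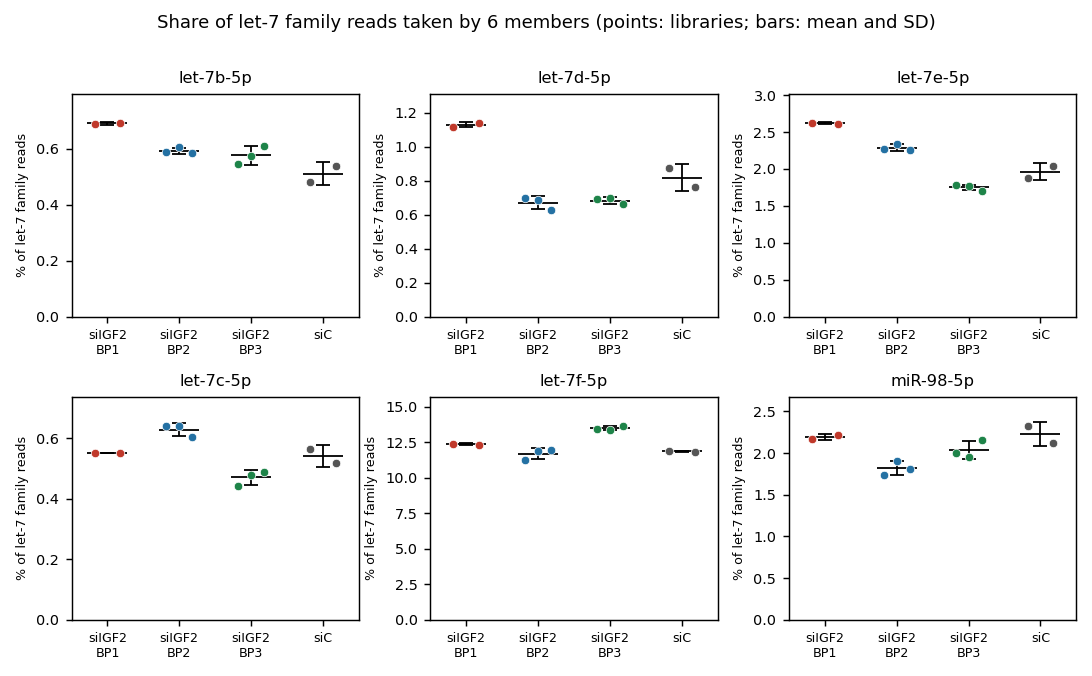
Percent of let-7 family reads (y axis, from 0) taken by let-7b-5p, let-7d-5p, let-7e-5p, let-7c-5p, let-7f-5p and miR-98-5p in the siIGF2BP1, siIGF2BP2, siIGF2BP3 and siC libraries (x axis); points are libraries, bars the group mean and SD. The 2 siIGF2BP1 points of let-7d-5p, at 1.12 and 1.14%, lie above the other 8, of which the highest is 0.872%.

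let-7d lies close to let-7a-1 and let-7f-1, and the values of the 3 strands can be set side by side, although the differences between them were not tested. In siIGF2BP1 against siIGF2BP2 the log2 fold changes were 0.88 for let-7d-5p, 0.21 for let-7f-5p (limma adjusted p = 0.252) and 0.04 for let-7a-5p (limma adjusted p = 0.893). In siIGF2BP1 against siIGF2BP3 they were 0.77, -0.09 and 0.03. The reads of let-7a-5p and let-7f-5p also include those of their copies on chromosomes 11, 22 and X.

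let-7e is transcribed with miR-99b and miR-125a, and miR-125a-5p, which represses ERBB2 among other targets, had the same order of group means as let-7e-5p. miR-125a-5p had 2992 and 2676 normalised reads in siIGF2BP1, 2748, 2425 and 2474 in siIGF2BP2, 1768, 2043 and 1929 in siIGF2BP3, and 2083 and 2344 in siC. Every siIGF2BP1 and siIGF2BP2 library lay above every siIGF2BP3 and siC library. It was called higher in siIGF2BP1 than in siIGF2BP3 (log2 fold change 0.57, SE 0.11, limma adjusted p = 0.00331), and in siIGF2BP2 than in siIGF2BP3 (0.41, SE 0.10, limma adjusted p = 0.045). The first of these calls was lost without siIGF2BP1 replicate 1 (adjusted p = 0.0515), and the second on leaving out any 1 of its 6 libraries (adjusted p = 0.0552 to 0.161). Upper-quartile scaling gave -0.25 for the first. miR-99b-5p had 4326 and 2937 in siIGF2BP1, 3821, 2539 and 2644 in siIGF2BP2, 1964, 2155 and 2921 in siIGF2BP3, and 3139 and 3551 in siC. Its groups overlapped more, and it was not called in siIGF2BP1 against siIGF2BP3 (0.62, SE 0.21, limma adjusted p = 0.074). Without siIGF2BP3 replicate 3 it was called (0.79, limma adjusted p = 0.0215). Without siIGF2BP3 replicate 1 or 2 it was not (limma adjusted p = 0.272 and 0.179). Its log2 fold change was 0.35 without siIGF2BP1 replicate 1 and 0.90 without siIGF2BP1 replicate 2. Upper-quartile scaling gave -0.19.

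let-7c shares its transcript with miR-99a, which was far less abundant. miR-99a-5p had 145 and 112 normalised reads in siIGF2BP1, 205, 120 and 147 in siIGF2BP2, 97.8, 93.5 and 124 in siIGF2BP3, and 127 and 132 in siC. As for let-7c-5p, the siIGF2BP2 mean was highest and the siIGF2BP3 mean lowest, with overlapping groups (siIGF2BP2 against siIGF2BP3, log2 fold change 0.56, SE 0.21, limma adjusted p = 0.218). miR-100-5p, next to let-7a-2, averaged 44165 ± 15585 in siIGF2BP1 (SD, n = 2), 49982 ± 11504 in siIGF2BP2 and 46257 ± 11792 in siIGF2BP3 (SD, n = 3 each), and 62154 ± 6968 in siC (SD, n = 2). limma, edgeR and DESeq2 called it in 0 of the 6 comparisons; with upper-quartile scaling limma called it lower in siIGF2BP1 than in siIGF2BP2 and in siIGF2BP3 (-0.90 each, adjusted p = 0.0358 and 0.0287). miR-125b-5p, which has hairpins near let-7a-2 and near let-7c, had 3038 and 2661 in siIGF2BP1 and 3817 and 4742 in siC (-0.58, SE 0.16, limma adjusted p = 0.0743), whereas let-7b-5p, let-7d-5p and let-7e-5p were positive in that comparison. edgeR and DESeq2 called miR-125b-5p lower there (-0.84, adjusted p = 0.00698, and -0.82, adjusted p = 3.9e-05). They also called it lower in siIGF2BP1 than in siIGF2BP2 (-0.65, adjusted p = 0.00651, and -0.62, adjusted p = 0.00109) and than in siIGF2BP3 (-0.54, adjusted p = 0.0137, and -0.52, adjusted p = 0.00489). limma called neither of these comparisons, which cross the blocks (-0.45, adjusted p = 0.0592, and -0.39, adjusted p = 0.1). With upper-quartile scaling limma called both (-1.15 and -1.20), but not siIGF2BP1 against siC (-0.80, adjusted p = 0.0659).

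**Figure D4:**
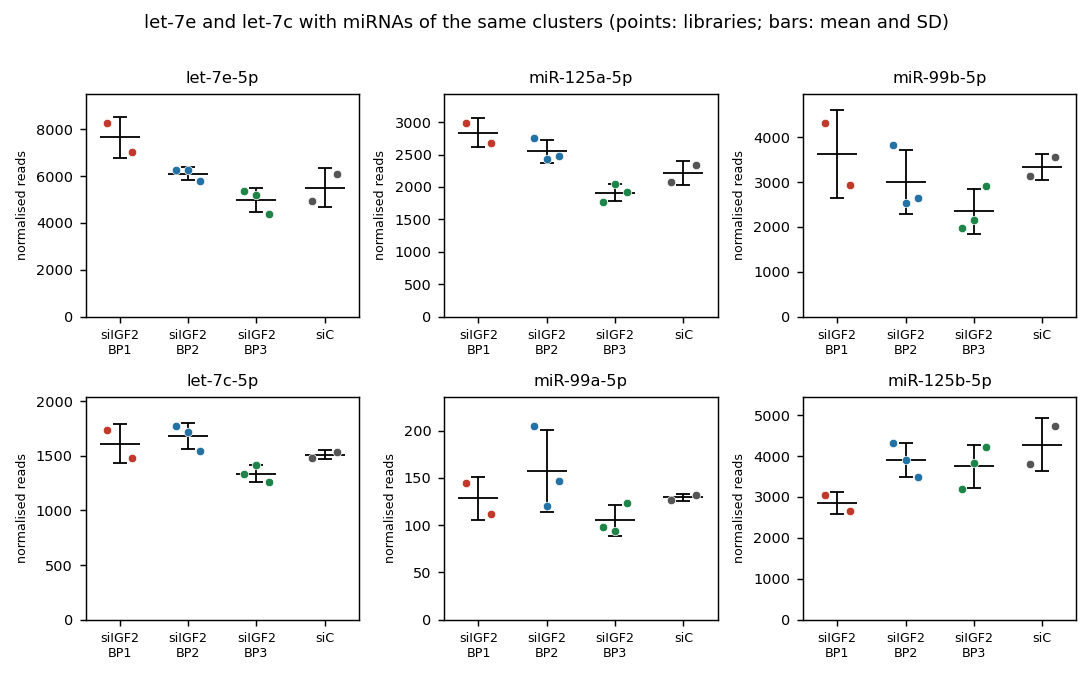
Normalised reads (y axis, from 0) of let-7e-5p with miR-125a-5p and miR-99b-5p, and of let-7c-5p with miR-99a-5p and miR-125b-5p, by group (x axis); points are libraries, bars the group mean and SD. let-7e-5p and miR-125a-5p are highest in siIGF2BP1 (means 7659 and 2834) and lowest in siIGF2BP3 (4978 and 1913).

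The sign of small changes depended on how libraries were put on a common scale. In siIGF2BP1 against siC, 9 of 9 members had a positive log2 fold change on the deposited scale, 6 after scaling by library totals, 4 after TMM scaling, 3 after median-of-ratios scaling and 4 after upper-quartile scaling. let-7b-5p, let-7d-5p and let-7e-5p were positive under each of these and under scaling by the let-7 family total, whereas let-7a-5p was negative under all but the deposited scale. The median over all miRNAs was 0.10 on the deposited scale, 0.00 with TMM and -0.01 with median-of-ratios scaling. In siIGF2BP2 and siIGF2BP3 against siC, upper-quartile scaling moved the median over all miRNAs from near 0 by 0.34 and 0.43, and all 9 members were then positive. The upper quartile of each library was taken over the 1196 miRNAs with a read. Of these, 313 averaged at least 10 normalised reads, so the quartile lies at low counts.

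**Figure D5:**
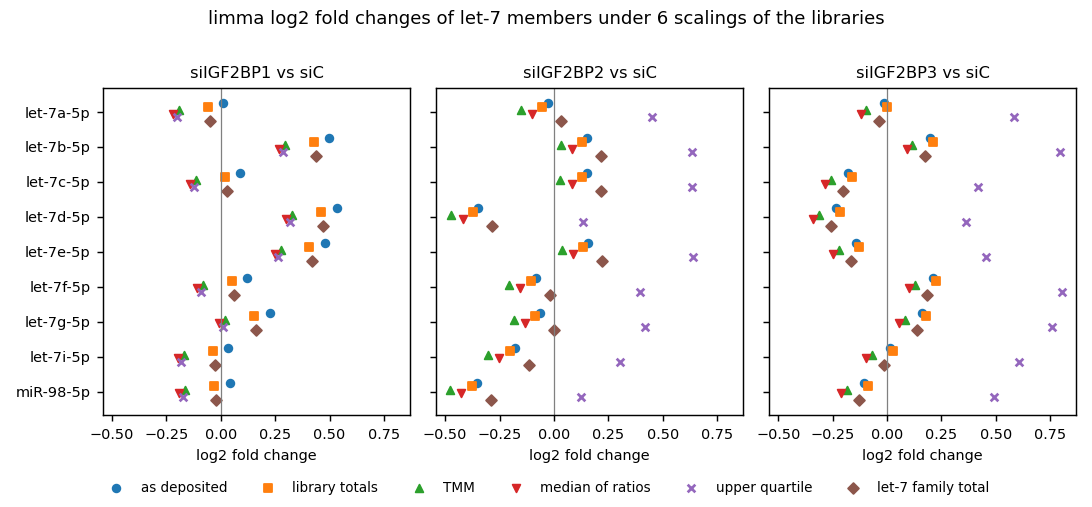
limma log2 fold changes (x axis) of the 9 members (rows) in each knockdown against siC (panels) under 6 scalings of the libraries (symbols). In siIGF2BP1 against siC let-7b-5p, let-7d-5p and let-7e-5p lie to the right of 0 under each scaling; upper-quartile scaling puts all 9 members right of 0 in siIGF2BP2 and siIGF2BP3.

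The summed family varied little between libraries, from 0.12 below to 0.18 above its mean on the log2 scale. Among 140 other miRNAs with a mean of at least 100 normalised reads, the profiles nearest to that of the family sum, by the root mean square of the difference between centred log2 values over the 10 libraries, were miR-30d-5p (0.12), miR-23a-3p (0.13), miR-16-5p (0.13), miR-30b-5p (0.14) and miR-320a (0.15). The median over the 140 miRNAs was 0.28. As the family sum varied little, any miRNA that varied little scores low by this measure. The ranking therefore does not show that the listed miRNAs rose and fell with the family.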

How the data were processed

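Small RNA of ES-2 cells was sequenced per the labels' protocols from TruSeq small RNA libraries with a size selection. Per the submitters' processing notes, the build was hg19 and the tools were Bowtie2 2.2.4, cutadapt 1.6, edgeR 3.12 and featureCounts 1.4.6, with settings not stated. The deposited library columns hold a normalised signal of the authors, in which 100% of values came out as whole reads (tolerance 0.01 reads) once divided by what 1 read is worth. The authors' table also gives log2 fold changes, p-values and false discovery rates (q-values), quoted only where named.

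Rows of the same name were summed. limma 3.58.1 (R 4.3.3) with an intensity trend was fitted to log2(value + 1) of the 889 miRNAs with a value of at least 1 in 2 libraries, all 10 libraries and 4 groups in 1 fit, for 6 comparisons, with Benjamini-Hochberg adjustment over all miRNAs and a threshold of 0.05. The design foresaw edgeR for counts; since the values were normalised, edgeR 4.0.16 (quasi-likelihood) and DESeq2 1.42.0 on the recovered reads are alternatives. Fold changes are on the log2(value + 1) scale and understate those of low miRNAs. All 9 members passed the filter. The limma and edgeR fits, but not DESeq2, were also run on simulated counts with known changes in siIGF2BP1 against siC. These counts had the same relative spread for all miRNAs and no difference between the blocks. They therefore do not show how reliable the calls on the real libraries are.

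The members, lists and most choices were made with earlier results of these data known. The named miRNAs are the 9 members, the miRNAs of their clusters and the 5 nearest profiles. The siC columns, here siC C2 and siC C3, could not be tied to single samples. Libraries held 462724 to 1269743 reads, and intervals of shares cover counting error only. RefSeq coordinates are of a later build than hg19 and describe the reference sequences only. In total 0 library columns were left unused. Alternatives were other pseudocounts (0.1 and 5), filters, scalings, tools, fits to the 2 groups compared, the first row of each miRNA alone, omitting 1 library at a time, and a block for the replicate number.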

Additional observations from a re-analysis of the deposited data

How the results depend on the processing

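The 9 members were refitted under 36 settings (1323 values). The counts of called members below stand without the share of all miRNAs called in each setting. In siIGF2BP1 against siC, limma's count of 0 called members became 3 with the filter of 10 and 0 to 1 on leaving out a library. In siIGF2BP2 against siC the count of 1 became 0 with no filter, with the 2 groups alone and scaled by the let-7 family total, 2 with TMM scaling and edgeR (lower), 3 with DESeq2 (lower: miR-98-5p, let-7i-5p and let-7d-5p), 3 others with upper-quartile scaling (higher: let-7b-5p, let-7c-5p and let-7e-5p), and 0 on leaving out any 1 library. In siIGF2BP3 against siC it became 6 (all higher) with upper-quartile scaling. In siIGF2BP2 against siIGF2BP3 the count of 0 became 1 with edgeR, library totals (let-7f-5p, lower) and the let-7 family total (let-7e-5p, 0.39, adjusted p = 0.0425), and 2 with DESeq2. In siIGF2BP1 against siIGF2BP2 the count of 2 became 1 with edgeR, DESeq2, TMM, median-of-ratios and family-total scaling, 4 (all lower) with upper-quartile scaling and 1 to 2 without a library; in siIGF2BP1 against siIGF2BP3 it became 7 (all lower) with upper-quartile scaling and 1 to 2 without a library.

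Upper-quartile scaling alone turned the sign of values that were called either before or after it, and the cause was not tested. Called before it were miR-98-5p in siIGF2BP2 against siC and in siIGF2BP1 against siIGF2BP2. So were let-7d-5p, let-7e-5p and miR-125a-5p in siIGF2BP1 against siIGF2BP3. The other values listed here were called only after it. It gave 0.13 for miR-98-5p in siIGF2BP2 against siC, and 0.58 for let-7a-5p and 0.49 for miR-98-5p in siIGF2BP3 against siC. In siIGF2BP1 against siIGF2BP2 it gave -0.66 for let-7a-5p, -0.49 for let-7f-5p, -0.48 for let-7i-5p, -0.30 for miR-98-5p and -0.54 for miR-125a-5p. In siIGF2BP1 against siIGF2BP3 it gave -0.79 for let-7a-5p, -0.51 for let-7b-5p, -0.54 for let-7c-5p, -0.046 for let-7d-5p, -0.19 for let-7e-5p, -0.75 for let-7g-5p, -0.79 for let-7i-5p, -0.67 for miR-98-5p and -0.25 for miR-125a-5p. In 163 of the 1323 values the sign differed without a call on either scale. With miR-21-5p left out of the denominator the family's share of reads became 32.8% in siIGF2BP1, 30.9% in siIGF2BP2, 32.5% in siIGF2BP3 and 32.5% in siC; siIGF2BP2 replicate 2 was then at 31.7%, above siC C2 at 31.6%.

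Same-numbered siIGF2BP2 and siIGF2BP3 libraries deviated with correlations of -0.157 to -0.0368 over 3 pairs, and 0 of 6 libraries correlated best with its own number. Same-numbered siIGF2BP1 libraries gave 0.123 and -0.022 with siIGF2BP2, and 0.0899 and 0.104 with siIGF2BP3. The replicate numbers thus gave no clear sign of pairing, but so few pairs cannot exclude it. With a replicate block 1 member was called in siIGF2BP1 against siIGF2BP2 (let-7d-5p), also scaled by the let-7 family total, 2 in siIGF2BP1 against siIGF2BP3 and 0 in siIGF2BP2 against siIGF2BP3. No paired analysis was possible against siC because its columns carry no replicate number. The block, the family-total scaling combined with it or with a left-out library, and the knockdown libraries alone include choices made after seeing the data. Every member had at least 667 reads in each library, so counting error is small beside the spread between libraries.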
